A study of Homo sapiens with 18 samples.

Results

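The 6 libraries compared here are the vehicle libraries of 2 engineered lines of THESC, an established, immortalised line of human endometrial stromal cells: 3 libraries of promoter cells and 3 of NT cells, taken by their labels from 18 libraries in all. Promoter cells carry the guide RNA named Promoter and are labelled PGRB-dominant, and NT cells carry a non-targeting guide and are labelled WT. Both lines had been grown in 10% serum with 4 µg/mL blasticidin, were moved to 2% serum for 24 hours and then received vehicle (0.01% ethanol, in medium with 2% charcoal-stripped serum) for 72 hours, with no progestin. The other 12 libraries, 3 in each group, are promoter and NT cells given the synthetic progestin medroxyprogesterone acetate (MPA, 1 µM), and a line with the guides U1U2 (labelled PGRA/B-equivalent) in MPA and in vehicle. Each label set describes 1 line per guide, so a difference between lines cannot be told apart from the history of that line. Nothing in the labels tells whether the 3 replicates of a group came from different dishes. The p-values therefore rest on a between-sample spread that may be only technical.

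Endometrial stromal cells are fibroblast-like cells that support the glands of the uterine lining. They divide in the first part of the cycle and, under progesterone, turn into secretory decidual cells. The progesterone receptor, encoded by PGR, is a transcription factor that binds DNA after hormone binding, and it is made as a long isoform, B, and a short isoform, A, from one gene. Vehicle cells show what the lines had in common and what set them apart before a progestin was given.

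The vehicle libraries held 31181732, 16806173 and 33418643 counts in promoter cells, against 11932474, 20819640 and 15408055 counts in NT cells. NT replicate 1 was the shallowest of the 6 and had 1305 CPM (counts scaled to a common library total) from ribosomal protein pseudogenes, against 516 to 706 CPM in the other 5. Mitochondrial genes took 1.63% to 2.15% of the counts in promoter cells and 2.51% to 3.02% in NT cells, so the groups did not overlap. Stromal genes were abundant (VIM, the intermediate filament vimentin, had 20942 to 50164 counts per library), while the endothelial gene PECAM1 had 0 to 4 counts, the epithelial gene CDH1 had 0 to 2 and the T cell gene CD3E had 0. Some markers on the same lists were well detected: TEK, an angiopoietin receptor of endothelial cells, had 2350, 1154 and 2675 counts in promoter cells and 699, 1219 and 838 in NT cells, and the keratin KRT19 had 1006, 331 and 1134 counts in promoter cells and 295, 320 and 215 in NT cells. These counts are not scaled for depth, which differed between the libraries as given above. Of 4 tested epithelial markers none reached an adjusted p under 0.05 between the lines in edgeR's test. The 10 endothelial markers summed, nearly all of it TEK, came to 74.3 to 76.5 CPM in promoter cells and 56.3 to 61.1 CPM in NT cells. The 10 leukocyte markers came to 4.34 to 4.90 CPM in promoter cells and 4.60 to 5.72 CPM in NT cells, and the 11 epithelial markers to 35.3 to 49.7 CPM and 25.4 to 40.3 CPM. Among their members the leukocyte marker PTPRC had 47 to 143 counts per library, the keratin KRT18 105 to 460 and the keratin KRT8 35 to 141.

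**Figure D1:**
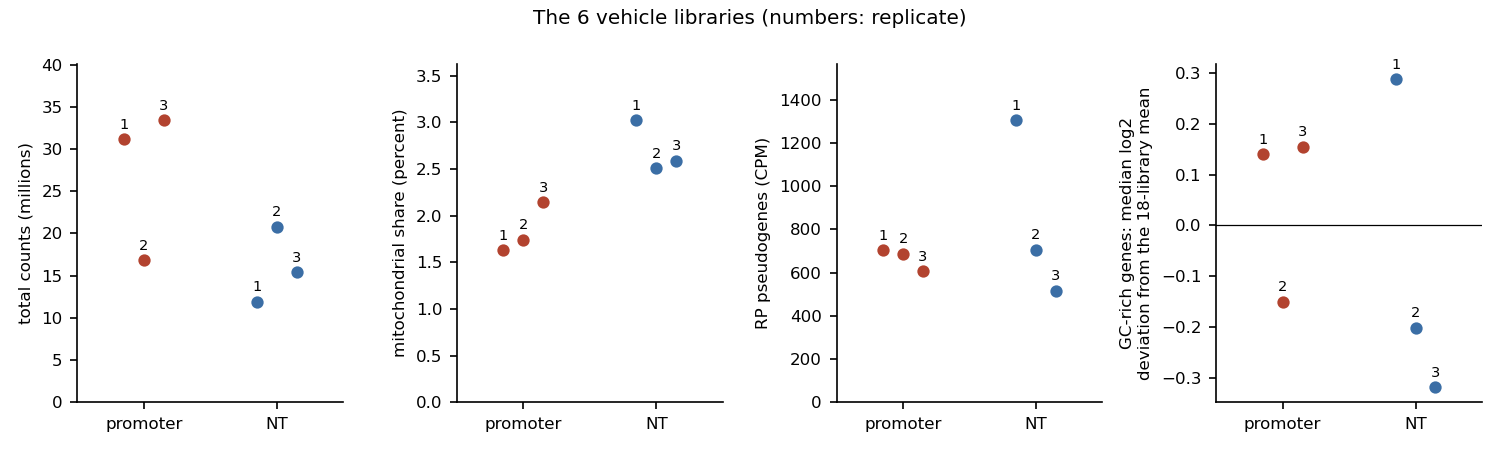
Total counts, mitochondrial share, CPM of ribosomal protein (RP) pseudogenes, and the median log2 deviation of GC-rich protein-coding genes (the highest of 5 equal GC classes) from the mean of all 18 libraries, for each vehicle library; promoter cells are on the left and NT cells on the right of each panel, and the numbers are replicates. NT replicate 1 stands apart with 1305 CPM of pseudogenes and with a GC deviation of 0.29, against -0.20 and -0.32 in the other NT libraries.

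PGR itself, which the study's design describes as activated in the promoter and U1U2 lines, checked the labels. It had 433, 475 and 395 CPM in promoter cells, against 120.0, 153 and 147 CPM in NT cells. PGR was higher in every promoter library than in any NT library, by 1.63 ± 0.12 on the log2 scale (standard error, SE; edgeR's quasi-likelihood test, adjusted p = 1.57e-06). The counts are of the whole gene, so isoforms A and B cannot be separated in them. PGR-AS1, an RNA transcribed from the opposite strand across the 5′ end of PGR (chr11:101129077-101209591 on GRCh38, against PGR at chr11:101029624-101130524), had 0.786, 0.439 and 0.557 CPM in promoter cells and 1.51, 2.38 and 1.83 CPM in NT cells (-1.66 ± 0.27, adjusted p = 0.000962). Reads from the overlap of the 2 genes cannot be assigned with certainty, since the strand setting of the counting is unknown. TRPC6, a cation channel gene further along chromosome 11, was lower too, at 13.7, 12.9 and 13.1 CPM in promoter cells against 23.1, 24.4 and 26.3 CPM in NT cells (-0.90 ± 0.11, adjusted p = 0.00016). Of 17 tested genes in the PGR neighbourhood 3 were called higher (PGR, MMP1 and MMP3) and 3 lower, against 3.07% and 3.68% of all tested genes. The MMP3 call held in 9 of 15 alternative runs.

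Across all genes, 15558 had enough counts to test, and 1050 of them (6.75%) were called at an adjusted p under 0.05. Of these, 478 (3.07% of the tested genes) were higher in promoter cells and 572 (3.68%) were lower, and 68 and 134 changed by more than 2-fold. The median log2 fold change of all tested genes was -0.00077. The libraries of the lines did not overlap for 1017 of the called genes and for 21.0% of all tested genes. The called share rests on some libraries: 522 genes were called without NT replicate 2 and 472 without promoter replicate 1, and 435 when only these 2 groups were fitted. With no filter on low counts 874 genes were higher and 572 lower. With offsets for GC content and length, added after the data were seen, 1701 genes were called, and a voom fit with quality weights called 5728.

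**Figure D2:**
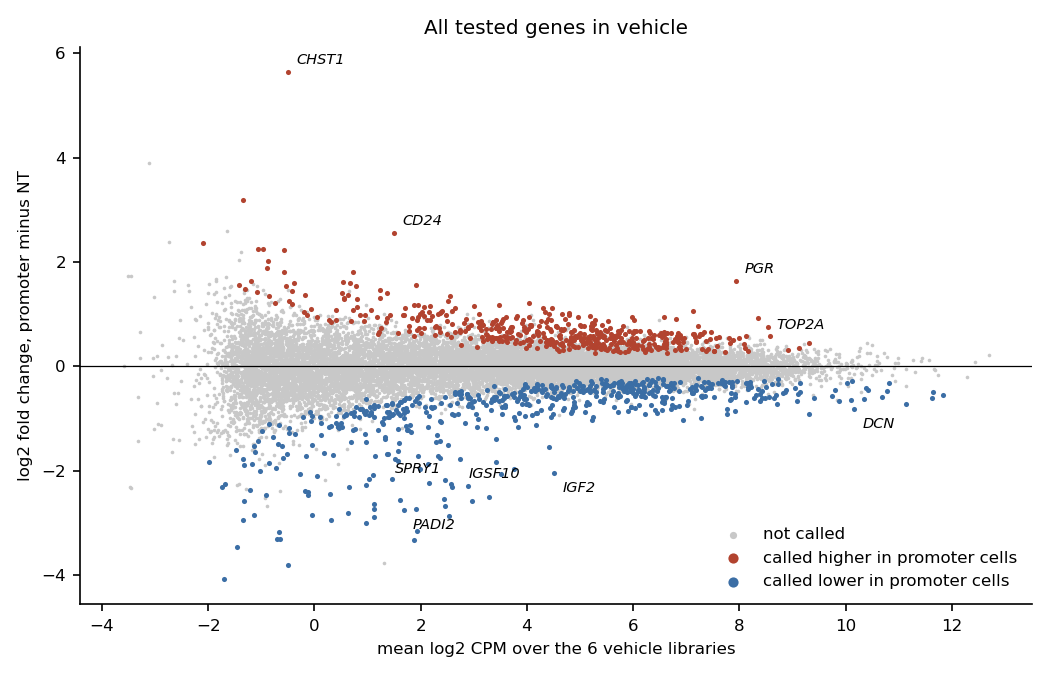
Log2 fold change of promoter cells over NT cells in vehicle (y axis) against the mean log2 CPM of the 6 vehicle libraries (x axis), 1 point per tested gene; red points were called higher in promoter cells (478 genes), blue points lower (572) and grey points neither. PGR lies at 1.63, and the highest point is CHST1.

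The largest fitted fold change among the called genes was that of CHST1, a sulfotransferase that adds sulfate to keratan sulfate chains. It lies below the expression level set for naming genes and was picked after its values were seen. It passed the filter on low counts only through promoter libraries, so its values are given as a description. CHST1 had 119, 43 and 126 counts in promoter cells and 1, 1 and 1 counts in NT cells. Summed over libraries that is 288 counts against 3, or 56.8 times as many after scaling by library totals (95% exact interval 19.2 to 277, for counting error only). The interval makes no allowance for the choice of the gene. U1U2 cells in vehicle, with a PGR level of 674, 531 and 584 CPM, had 5 counts over their 3 libraries. In MPA the same split appeared, with 111 counts over the promoter libraries and 5 over the NT libraries, and each NT or U1U2 library had 0 to 3. The gene lies at chr11:45648877-45665622 on GRCh38.

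CD24, a small surface glycoprotein, was also set apart by line. CD24 had 7.45, 6.65 and 5.82 CPM in promoter cells, against 1.59, 0.905 and 0.983 CPM in NT cells (2.56 ± 0.32, adjusted p = 0.000173), and 0.369, 0.469 and 0.799 CPM in U1U2 cells in vehicle. In MPA CD24 stood at 1.39, 1.22 and 1.49 CPM in promoter cells and 0.260, 0.190 and 0.275 CPM in NT cells (2.52 ± 0.44, adjusted p = 0.00168). Near-identical copies of CD24 exist, and the counting could have split its reads. STYK1, a receptor-like kinase, was higher at 3.80, 3.20 and 3.81 CPM against 1.26, 1.62 and 1.44 CPM in NT cells (1.31 ± 0.18, adjusted p = 0.000294). So was PLEKHG4, a guanine nucleotide exchange factor, at 8.14, 5.33 and 5.57 CPM against 2.59, 2.19 and 1.77 CPM in NT cells (1.56 ± 0.27, adjusted p = 0.00164). CDCP1, a transmembrane protein phosphorylated by Src kinases, had 4.65, 3.77 and 3.65 CPM in promoter cells and 1.92, 1.19 and 1.57 CPM in NT cells (1.40 ± 0.23, adjusted p = 0.00112). GRPR, the receptor of gastrin-releasing peptide, was higher by 1.17 ± 0.16 (adjusted p = 0.000378). HLA-DMA, a chaperone that loads peptides onto class II molecules, was higher by 1.14 ± 0.16 (adjusted p = 0.000417), and its partner HLA-DMB had too few counts to test, with 17, 7 and 34 counts in promoter cells and 0 in each NT library, so at least 11.4-fold higher when the NT libraries together are given 3 counts. HLA-DMB was picked because it had 0 counts in each NT library, so its floor is only a description. HLA genes have near-identical relatives, so the values of HLA-DMA and HLA-DMB are uncertain.

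**Figure D3:**
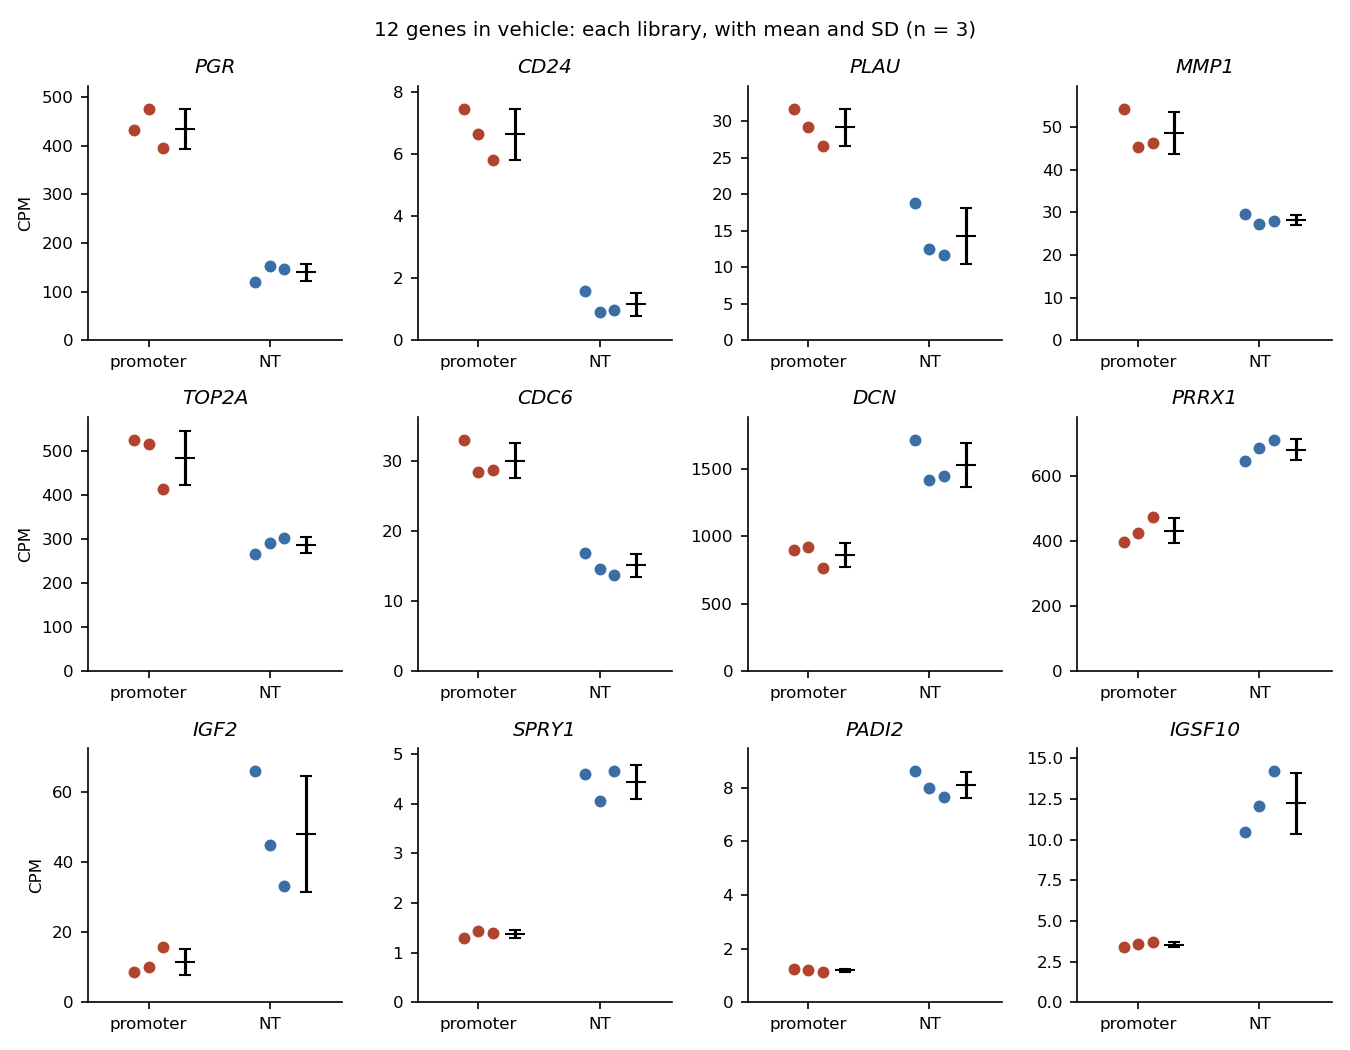
CPM of 12 genes in each vehicle library, with promoter cells on the left and NT cells on the right; points are libraries and bars are the mean and SD (n = 3 each), on axes that start at 0. PGR, CD24, PLAU, MMP1, TOP2A and CDC6 were higher in promoter cells and DCN, PRRX1, IGF2, SPRY1, PADI2 and IGSF10 lower. The groups do not overlap for any of the 12, which was a condition for naming some of them. They did not overlap for 21.0% of all tested genes.

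Cell division genes were higher in promoter cells. Of 42 tested mitosis genes 37 were called higher and none lower in promoter cells, with a median log2 fold change of 0.68, against 3.07% and -0.00077 over all tested genes. Of 41 DNA replication genes 25 were called higher and none lower, with a median of 0.60, and all 41 had a positive log2 fold change. Their summed level was 3894, 3616 and 3489 CPM for the mitosis genes in promoter cells and 2311, 2255 and 2424 CPM in NT cells. For the replication genes it was 1450.1, 1291 and 1297 CPM in promoter cells and 923, 864 and 918 CPM in NT cells. No promoter library overlapped an NT library in either sum. The lists were written with earlier results of these data known, and the fit without NT replicate 2 called 15 replication genes.

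Among the mitosis genes, TOP2A, the topoisomerase that untangles sister chromatids, had 524, 515 and 414 CPM in promoter cells, against 267, 291 and 303 CPM in NT cells (0.76 ± 0.13, adjusted p = 0.00138). CDK1, the kinase that drives entry into mitosis, had 83.9, 94.1 and 75.8 CPM against 48.9, 51.1 and 57.6 CPM in NT cells (0.69 ± 0.11, adjusted p = 0.00115). BUB1, a kinase of the spindle checkpoint, had 75.7, 67.0 and 65.1 CPM against 43.6, 39.5 and 44.9 CPM in NT cells (0.70 ± 0.11, adjusted p = 0.000958). All 3 were clear of the NT range, as were 1017 of the 1050 called genes. The kinesin KIF2C was higher by 0.91 ± 0.16 (adjusted p = 0.00256). Outside the list, the kinesin KIF18B (1.15 ± 0.18, adjusted p = 0.000808) and PIMREG, a mitotic chromatin regulator (1.34 ± 0.20, adjusted p = 0.000689), were higher too. MKI67, the proliferation marker Ki-67, had 221, 171 and 196 CPM in promoter cells and 142, 102 and 101 CPM in NT cells (0.78 ± 0.17, adjusted p = 0.00874), a call lost without NT replicate 2 or promoter replicate 1 (adjusted p up to 0.057). CCNB1, the mitotic cyclin B1, had 158, 148 and 99.5 CPM against 74.9, 67.2 and 67.4 CPM in NT cells (0.95 ± 0.22, adjusted p = 0.0119), lost without NT replicate 2, NT replicate 3 or promoter replicate 1 (adjusted p up to 0.0836).

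For DNA replication, CDC6, which loads the MCM helicase, had 32.9, 28.4 and 28.6 CPM in promoter cells and 16.9, 14.6 and 13.7 CPM in NT cells (1.00 ± 0.11, adjusted p = 6.77e-05). ORC1, a subunit of the origin recognition complex, was higher by 1.03 ± 0.19 (adjusted p = 0.00344) and MCM10, a replication fork factor, by 0.96 ± 0.16 (adjusted p = 0.00153). POLA1, the catalytic subunit of the polymerase that starts each strand, had 42.0, 38.8 and 35.1 CPM against 25.2, 28.5 and 27.4 CPM in NT cells (0.51 ± 0.09, adjusted p = 0.00292). E2F7, a transcription factor of the S phase that is not on the list, had 30.7, 30.8 and 25.9 CPM in promoter cells, against 12.8, 14.1 and 13.2 CPM in NT cells (1.11 ± 0.13, adjusted p = 7.65e-05). CDKN1C, the CDK inhibitor p57, was lower, at 2.45, 1.69 and 2.42 CPM against 7.53, 4.95 and 3.41 CPM in NT cells (-1.23 ± 0.24, adjusted p = 0.00387), though not when only these 2 groups were fitted (adjusted p = 0.0506).

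Promoters of such genes are known for 2 sequence elements, the E2F element of S phase genes and the CHR element of genes used in mitosis, so the windows of 250 bases before the RefSeq start (GRCh38.p14) were searched on both strands. The E2F element was searched as TTTCCCGC, TTTCGCGC, TTTGCCGC or TTTGGCGC and the CHR as TTTGAA, and none of these words contains another. A match is a description and no evidence of binding. Of the 36 mitosis genes with a window 22 (61.1%) held the CHR word, against 12.6% of the 11003 tested genes with a window. Of the 36 replication genes with a window 15 (41.7%) held an E2F word, against 5.54%. The 3 windows below are those of the called genes with the largest fold change, up to 2 per list, among genes meeting further conditions. The window had to hold the list's word and overlap no annotated exon. The gene needed a mean log2 CPM of 1 or more and no overlap of the lines. Genes on the chromosome that carries CCNE2 and MCM4 were left out. Both are called replication genes with larger log2 fold changes (0.67 and 0.60) than POLA1 (0.51). Capitals mark the word on either strand. The windows run from 5′ to 3′ along the gene.
MKI67: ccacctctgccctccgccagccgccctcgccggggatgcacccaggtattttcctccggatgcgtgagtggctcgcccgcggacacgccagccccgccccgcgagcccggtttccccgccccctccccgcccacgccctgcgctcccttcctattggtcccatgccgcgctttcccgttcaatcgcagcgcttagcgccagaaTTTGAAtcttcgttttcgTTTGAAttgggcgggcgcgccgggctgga
CDK1: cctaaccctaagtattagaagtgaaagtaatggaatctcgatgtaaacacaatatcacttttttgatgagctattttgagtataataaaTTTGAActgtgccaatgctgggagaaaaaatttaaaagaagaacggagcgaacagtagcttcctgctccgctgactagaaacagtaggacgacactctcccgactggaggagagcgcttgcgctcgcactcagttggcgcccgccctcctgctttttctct
POLA1: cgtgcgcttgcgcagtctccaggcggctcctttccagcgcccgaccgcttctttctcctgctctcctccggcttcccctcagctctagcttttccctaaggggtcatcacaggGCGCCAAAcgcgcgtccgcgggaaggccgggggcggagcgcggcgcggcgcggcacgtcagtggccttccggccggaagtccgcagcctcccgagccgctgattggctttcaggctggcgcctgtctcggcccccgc
The windows are chr10:128126424-128126673 (minus strand) for MKI67, which holds 2 copies of the word, chr10:60778081-60778330 (plus strand) for CDK1 and chrX:24693668-24693917 (plus strand) for POLA1.

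None of the 42 mitosis genes and none of the 41 replication genes was called in either direction between promoter and NT cells in MPA, where 645 of all tested genes (4.15%) were called and 1.77% were higher and 2.37% lower, and the medians were 0.06 and 0.11. A p that misses the threshold does not show that the lines were equal. The difference between the lines' responses to MPA, which draws on the vehicle libraries too, was called for 10 mitosis genes and 5 replication genes, each with a more negative response in promoter cells. Of all tested genes 1.56% were called in that difference, 0.803% with a more positive and 0.752% with a more negative response. For CDC6 the levels in MPA were 16.9, 19.4 and 18.7 CPM in promoter cells and 15.4, 14.7 and 18.6 CPM in NT cells (0.19 ± 0.11, adjusted p = 0.512). U1U2 cells in vehicle lay between the lines for both CDC6 and TOP2A, with 18.01, 20.2 and 18.9 CPM of CDC6 and 338, 395 and 359 CPM of TOP2A.

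**Figure D4:**
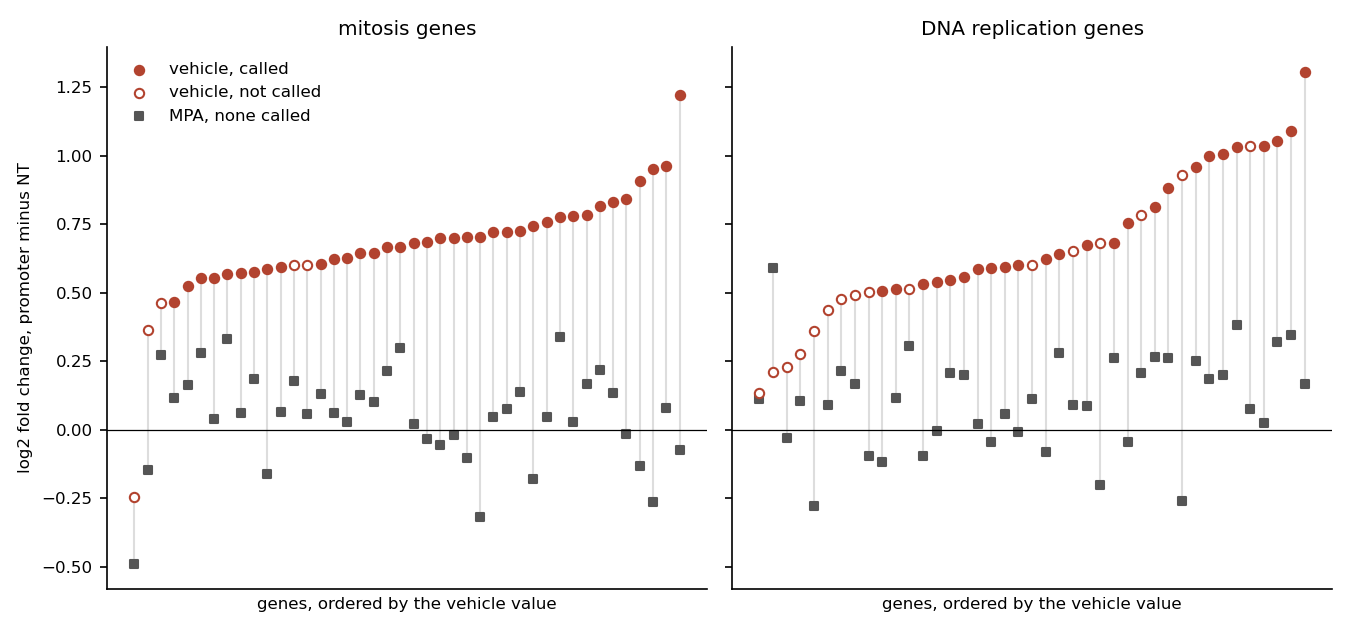
Log2 fold change of promoter over NT cells for each of 42 mitosis genes and 41 DNA replication genes, ordered by the value in vehicle; red circles are vehicle (filled where called, 37 and 25 genes) and grey squares the same genes in MPA, where none was called. In vehicle the medians were 0.68 and 0.60, and in MPA they were 0.06 and 0.11.

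A plasminogen activator and a collagenase were higher in promoter cells. PLAU, the urokinase that activates plasminogen, had 31.6, 29.2 and 26.6 CPM in promoter cells, against 18.7, 12.4 and 11.7 CPM in NT cells (1.04 ± 0.18, adjusted p = 0.00205). MMP1, the interstitial collagenase, had 54.2, 45.3 and 46.2 CPM against 29.5, 27.3 and 28.1 CPM in NT cells (0.78 ± 0.10, adjusted p = 0.000196), and it is also counted above in the PGR neighbourhood. ADAMTS5, an aggrecan-cleaving protease, went the other way, at 240.1, 294 and 267 CPM against 397, 430.5 and 439 CPM in NT cells (-0.66 ± 0.13, adjusted p = 0.00522). Of 32 tested matrix proteases and inhibitors 5 (15.6%) were called higher and 2 (6.25%) lower, against 3.07% and 3.68% of all tested genes, with a median of 0.15. Without NT replicate 2, or without promoter replicate 1, 3 were called higher, and without NT replicate 1, or without promoter replicate 1, 1 was called lower.

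Of 10 tested small leucine-rich proteoglycans, which bind collagen fibrils, 5 (50%) were called lower and none higher, with a median of -0.65. Of all tested genes 3.68% were called lower and 3.07% higher. DCN, decorin, had 902, 924 and 763 CPM in promoter cells, against 1713, 1419.7 and 1449 CPM in NT cells (-0.82 ± 0.12, adjusted p = 0.000572). PRELP, of the same family, had 20.3, 22.0 and 26.6 CPM against 44.4, 37.1 and 37.5 CPM in NT cells (-0.79 ± 0.15, adjusted p = 0.00295). LUM, lumican, was lower by -0.66 ± 0.14 (adjusted p = 0.00844), a call lost with GC and length offsets (adjusted p = 0.0503), and ASPN, asporin, by -0.63 ± 0.16 (adjusted p = 0.0234), lost without NT replicate 2, NT replicate 3, promoter replicate 1 or promoter replicate 2 and with the 2 groups alone (adjusted p up to 0.15). OMD, osteomodulin, was near the detection limit, with 0.346, 0.314 and 0.334 CPM against 0.837, 1.00 and 1.05 CPM in NT cells (-1.53 ± 0.27, adjusted p = 0.00224). DCN and LUM are also among the 15 stromal cell markers, of which 3 (20%) were called lower and none higher, and whose summed level was 14493, 17513 and 12497 CPM in promoter cells and 19023, 15952 and 15730 CPM in NT cells, so the groups overlapped. Fewer cells of a type and less RNA per cell cannot be told apart in bulk libraries.

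Beside 3.07% higher and 3.68% lower of all tested genes, 1 of 24 tested collagen chains (4.17%) was called lower and none higher. It was COL14A1, a fibril-associated collagen, with 164, 157 and 158 CPM in promoter cells and 292, 299.8 and 311 CPM in NT cells (-0.91 ± 0.12, adjusted p = 0.000246). The laminin chains LAMA4 (189, 192 and 176 CPM against 280.1, 287 and 291 CPM in NT cells, -0.62 ± 0.08, adjusted p = 0.000144) and LAMA2 (17.0, 19.2 and 15.6 CPM against 26.9, 31.2 and 27.6 CPM in NT cells, -0.74 ± 0.10, adjusted p = 0.000244) were lower, as was TNC, tenascin C (-0.89 ± 0.18, adjusted p = 0.00447). MFAP5, a microfibril protein, was lower by -0.62 ± 0.12 (adjusted p = 0.00359). Among 37 basement membrane and elastic fibre genes 1 (2.70%) was called higher (none without NT replicate 2 or 3 or promoter replicate 1 or 2) and 6 (16.2%) lower. In MPA the laminin chains parted: LAMA4 stayed lower in promoter cells (-1.14 ± 0.08, adjusted p = 4.87e-08), while LAMA2 was higher (0.35 ± 0.09, adjusted p = 0.0381).

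**Figure D5:**
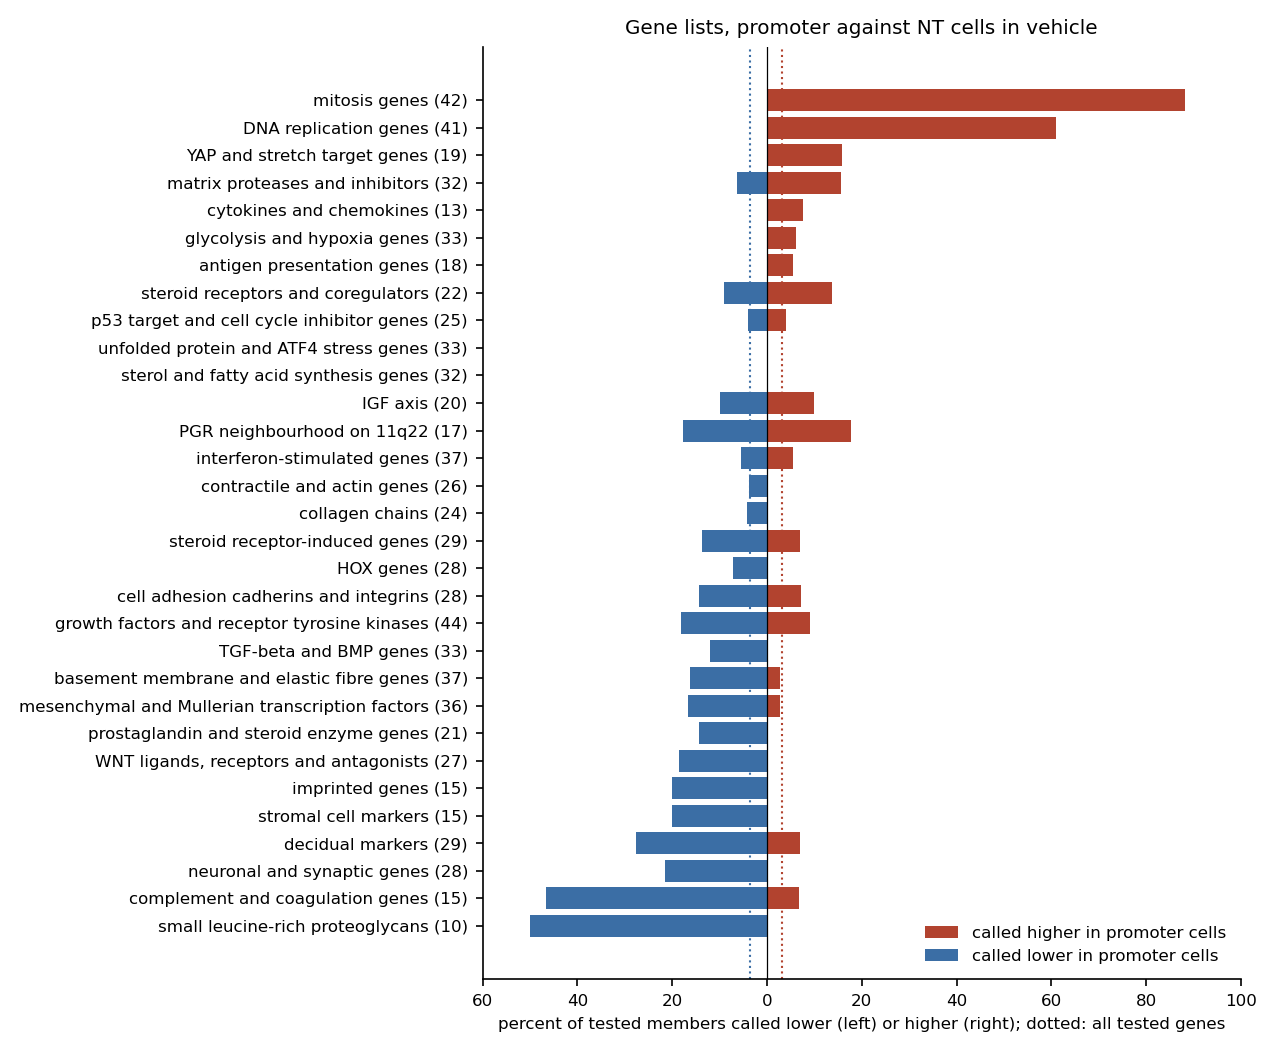
Percent of the tested members of each of 31 gene lists with at least 10 tested members (number in brackets) called higher (red, right) or lower (blue, left) in promoter than in NT cells in vehicle; dotted lines mark all tested genes, 3.07% higher and 3.68% lower. The mitosis and DNA replication lists stand out to the right, and the small leucine-rich proteoglycans and the complement and coagulation genes to the left.

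IGF2, an insulin-like growth factor, fell in promoter cells to 8.64, 10.0 and 15.8 CPM, against 66.0, 45.0 and 33.3 CPM in NT cells (-2.05 ± 0.27, adjusted p = 0.000247), and the IGF binding protein IGFBP3 was lower, at 678, 780.3 and 657 CPM against 1150.4, 966 and 1000.3 CPM in NT cells (-0.56 ± 0.09, adjusted p = 0.00139). IGF2 overlaps a readthrough gene, INS-IGF2, so its reads may have been split. Of 20 tested IGF axis genes 2 (10%) were called lower and 2 (10%) higher, against 3.68% and 3.07% of all tested genes. The higher ones were the binding protein IGFBP5 (0.84 ± 0.22, adjusted p = 0.0283) and PAPPA2, a protease of IGF binding proteins (0.87 ± 0.23, adjusted p = 0.0309). Neither higher call held without NT replicate 2 or promoter replicate 1 (adjusted p up to 0.222), and 1 held without NT replicate 3, promoter replicate 2 or promoter replicate 3. SPRY1, a Sprouty inhibitor of receptor tyrosine kinase signalling, had 1.29, 1.44 and 1.39 CPM in promoter cells and 4.60, 4.05 and 4.65 CPM in NT cells (-1.69 ± 0.16, adjusted p = 1.46e-05). The receptor PDGFRA (-0.61 ± 0.09, adjusted p = 0.000572), its family ligand PDGFD (-0.97 ± 0.13, adjusted p = 0.000316) and the vessel-stabilising ligand ANGPT1 (-0.73 ± 0.12, adjusted p = 0.00148) were lower, each with no overlap of the lines, as for 1017 of the 1050 called genes. MET, the receptor of hepatocyte growth factor, was higher at 150.1, 142 and 125 CPM against 90.0, 95.3 and 93.9 CPM in NT cells (0.58 ± 0.09, adjusted p = 0.000572), as was the ERK phosphatase DUSP5 (0.80 ± 0.16, adjusted p = 0.005). Of 44 tested growth factors and receptor tyrosine kinases 4 (9.09%) were called higher and 8 (18.2%) lower. The fit without promoter replicate 1 called 2 higher and 4 lower, that without NT replicate 3 called 2 higher, and those without NT replicate 2 or promoter replicate 2 called 5 lower.

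WNT2B, a WNT ligand, had 5.25, 6.09 and 7.35 CPM in promoter cells and 14.1, 14.9 and 13.3 CPM in NT cells (-1.18 ± 0.15, adjusted p = 0.000155), and WNT2 was lower by -0.44 ± 0.08 (adjusted p = 0.00338). PTH1R, the receptor of parathyroid hormone, had 1.35, 1.26 and 1.64 CPM against 6.61, 4.10 and 3.28 CPM in NT cells (-1.67 ± 0.30, adjusted p = 0.00227). In the prostaglandin pathway PTGIS, which makes prostacyclin, had 0.377, 0.251 and 0.417 CPM in promoter cells and 1.67, 1.29 and 1.70 CPM in NT cells (-2.05 ± 0.37, adjusted p = 0.00259). PTGFR, the receptor of prostaglandin F2α, had 69.5, 90.6 and 79.5 CPM against 115, 154 and 153 CPM in NT cells (-0.82 ± 0.13, adjusted p = 0.000961). For each of these 5 genes all promoter libraries lay below all NT libraries. The lines did not overlap for 1017 of all 1050 called genes either.

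Several transcription factors of the mesenchyme were lower in promoter cells. PRRX1, a homeobox gene of connective tissue, had 397, 424 and 474 CPM against 645, 685 and 709 CPM in NT cells (-0.66 ± 0.10, adjusted p = 0.000727). SIX2, a homeobox gene of kidney progenitors, had 1.19, 1.00 and 1.17 CPM against 2.76, 3.38 and 3.14 CPM in NT cells (-1.45 ± 0.19, adjusted p = 0.000247). NR2F1, a COUP-TF orphan receptor counted with the steroid receptors, was lower by -0.58 ± 0.10 (adjusted p = 0.00227). Of 36 mesenchymal and Müllerian transcription factors 1 (2.78%) was called higher and 6 (16.7%) lower, against 3.07% and 3.68% of all tested genes. Without promoter replicate 3, 10 of them were called lower. Of 28 HOX genes 5 had a positive log2 fold change, with 2 (7.14%) called lower and a median of -0.28. The HOX count was 4 without NT replicate 1, 5 without promoter replicate 3, 1 without promoter replicate 1 or 2 and 0 without NT replicate 2.

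Of 28 tested genes that serve neurons in other tissues 6 (21.4%) were called lower and none higher, against 3.68% and 3.07% of all tested genes, with a median of -0.17. NPTX1, a neuronal pentraxin, had 65.9, 64.3 and 79.4 CPM in promoter cells and 144, 112 and 116 CPM in NT cells (-0.83 ± 0.10, adjusted p = 0.00014). KCND2, a potassium channel subunit, was lower by -1.16 ± 0.19 (adjusted p = 0.00118), SYT1, a synaptic vesicle calcium sensor, by -0.98 ± 0.16 (adjusted p = 0.00144) and NCAM2, a neural adhesion molecule, by -0.83 ± 0.12 (adjusted p = 0.000461).

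PADI2, IGSF10 and C11orf87 were lower in promoter cells both in vehicle and in MPA. PADI2, an enzyme that converts arginine to citrulline in proteins, had 1.26, 1.19 and 1.14 CPM in promoter cells, against 8.62, 8.004 and 7.67 CPM in NT cells (-2.75 ± 0.29, adjusted p = 3.89e-05), and was at -5.23 ± 0.40 in MPA (adjusted p = 1.86e-07). U1U2 cells in vehicle had 0.645, 0.469 and 0.543 CPM of PADI2. IGSF10, an immunoglobulin superfamily gene, had 3.39, 3.58 and 3.70 CPM in promoter cells and 10.5, 12.1 and 14.2 CPM in NT cells (-1.78 ± 0.19, adjusted p = 3.89e-05), against 9.31, 8.03 and 6.65 CPM in U1U2 cells. In MPA it was at -2.45 ± 0.20 (adjusted p = 4.44e-07). C11orf87 (-1.54 ± 0.15, adjusted p = 1.87e-05) was at -2.05 ± 0.15 in MPA (adjusted p = 1.7e-07).

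FKBP5, a chaperone that steroid receptors induce, had 17.9, 23.8 and 20.7 CPM in promoter cells and 16.1, 16.9 and 15.5 CPM in NT cells (0.36 ± 0.10, adjusted p = 0.0385), a call lost without each NT replicate, without promoter replicates 2 and 3 and with the 2 groups alone (adjusted p up to 0.215). FOXO1, a transcription factor of decidual cells, was lower at 16.4, 18.3 and 17.6 CPM against 22.3, 28.2 and 24.5 CPM in NT cells (-0.53 ± 0.12, adjusted p = 0.0121), lost without NT replicate 2, without promoter replicate 1 and with the 2 groups alone (adjusted p up to 0.097). CRISPLD2, a secreted protein induced by glucocorticoids and progestins, was lower at 45.0, 46.5 and 42.1 CPM against 92.4, 77.3 and 73.0 CPM in NT cells (-0.86 ± 0.10, adjusted p = 0.000107). Of 29 tested decidual markers 2 (6.90%) were called higher and 8 (27.6%) lower, against 3.07% and 3.68% of all tested genes, with a median of -0.20. Without promoter replicate 1, 5 were called lower. The 2 higher fell to 0 without NT replicate 2 or 3 or promoter replicate 3 and to 1 without NT replicate 1 or promoter replicate 1 or 2. Of 29 steroid receptor-induced genes 2 (6.90%) were called higher (1 or 0 without any single library) and 4 (13.8%) lower, with a median of -0.07. In MPA, where 1.77% of all tested genes were called higher and 2.37% lower, 10 of these 29 were higher and none was lower in promoter cells. The decidual and steroid receptor-induced lists share members, among them OMD, which is also counted above with the proteoglycans. Their counts are therefore not separate.

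To see how far the vehicle differences resembled a response to MPA, they were set beside MPA minus vehicle in U1U2 cells, which share no library with the comparison. In U1U2 cells 846 genes were called higher in MPA and 968 lower, which is 5.44% and 6.22% of the tested genes and 11.7% in all. Of the 846, 34 (4.02%) were called higher and 75 (8.87%) lower in promoter than in NT cells in vehicle, with a median log2 fold change of -0.08, beside 3.07% and 3.68% of all tested genes. Of the 968, 56 (5.79%) were called higher and 155 (16.0%) lower, with a median of -0.07.

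The comparison of the same lines in MPA uses none of the vehicle libraries. The genes followed here were chosen by the vehicle test, so a smaller median in MPA is to be expected from that choice alone. Of the 478 genes higher in vehicle 47 (9.83%) were also called higher in MPA, which is 17.0% of those called higher there, and 1 was called lower; 346 had the same sign, and the median was 0.61 in vehicle and 0.11 in MPA. Of the 572 lower genes 155 (27.1%) were also called lower in MPA, 42.0% of those called lower there, and 11 were called higher; 486 had the same sign, with medians of -0.64 and -0.28. Of all tested genes 1.77% were called higher and 2.37% lower in MPA. The same-sign counts have no such share beside them. The difference of the lines' MPA responses was called for 76 of the higher and 46 of the lower genes, and for 1.56% of all tested genes. That difference contains the vehicle values by which these genes were chosen.

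Complement and coagulation genes had 7 of 15 tested members (46.7%) called lower and 1 (6.67%) higher, against 3.68% and 3.07% of all tested genes. The 1 higher call held without NT replicate 3 and was lost without any other single library, and the lower count was 2 without promoter replicate 1, 3 without NT replicate 2 and 1 with the 2 groups alone. Of 32 sterol and fatty acid synthesis genes, and of 33 unfolded protein and ATF4 stress genes, none was called by edgeR's quasi-likelihood test. At the same adjusted p under 0.05 that test called 6.75% of all tested genes. DESeq2 called none of the synthesis genes and 1 of the stress genes higher, the fit with no filter on low counts 3 and 4, the voom fit 11 and 12, and the fit without NT replicate 1 called 1 and 2. Of 3 tested endothelial markers 2 were called higher and 1 lower. TEK was higher, at 73.9, 72.4 and 74.5 CPM in promoter cells and 58.5, 58.1 and 54.9 CPM in NT cells (0.36 ± 0.07, adjusted p = 0.00345), though not with the 2 groups alone (adjusted p = 0.068). TIE1, an endothelial receptor tyrosine kinase, had 25, 19 and 31 counts in promoter cells and 4, 4 and 1 in NT cells, and it passed the filter on low counts only through the promoter libraries. ESAM, an endothelial adhesion molecule, had 0.786, 0.502 and 0.557 CPM in promoter cells and 1.76, 1.43 and 0.786 CPM in NT cells (-1.05 ± 0.30, adjusted p = 0.045), a call lost without any single library other than NT replicate 3 (adjusted p up to 0.192).

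Some of the lower calls fell in gene classes described above as library measures. Of 296 tested processed pseudogenes 48 were called lower and 1 higher, against 447 lower and 463 higher of 12297 protein-coding genes. RPL10AP6, a ribosomal protein pseudogene, had 1.98, 2.07 and 3.48 CPM in promoter cells, against 38.7, 13.8 and 4.26 CPM in NT cells (-2.87 ± 0.55, adjusted p = 0.0036), so NT replicate 1 carried most of its level. Its call held in all 15 alternatives that tested it, with log2 fold changes of -3.34 to -1.84. Its reads may come from near-identical copies. MT-RNR2, the mitochondrial 16S ribosomal RNA, had 2819, 3357 and 2904 CPM in promoter cells and 4879, 4037 and 4377 CPM in NT cells (-0.55 ± 0.11, adjusted p = 0.0039), not called with the 2 groups alone (adjusted p = 0.078). Protein-coding genes in the lowest of 5 GC classes had a median log2 fold change of -0.06 in vehicle and those in the highest class 0.13, against 0.04 and -0.01 in MPA. The part of depth and RNA quality in the vehicle differences was not tested.

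Promoter cells were also set against U1U2 cells in vehicle, with the same promoter libraries. That comparison called 122 genes (0.784% of those tested), 82 (0.527%) higher and 40 (0.257%) lower in promoter cells. Of the mitosis genes 14 were called higher and none lower there, and of the replication genes 4 were called higher and none lower. Of 10 small leucine-rich proteoglycans, 29 decidual markers and 15 complement and coagulation genes none was called there, with medians of -0.08, 0.05 and 0.03. Against NT cells those medians were -0.65, -0.20 and -0.27. Of 37 basement membrane and elastic fibre genes 4 were called lower than in U1U2 cells. PLAU was at 1.04 ± 0.18 (adjusted p = 0.00915) and LAMA4 at -0.62 ± 0.08 (adjusted p = 0.000476), while PGR was at -0.46 ± 0.12 (adjusted p = 0.107). With only these 2 groups fitted 11 genes were called, and leaving out single libraries gave 39 to 64.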

How the data were processed

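RNA of THESC cells was sequenced from a TruSeq stranded mRNA library kit in 18 libraries, 3 per group. Per the submitters' processing notes, STAR 2.6.0c, edgeR 4.2.2 and R 4.4.1 were used with hg38; the counter, strand setting and annotation are not given in the sources used here. In the deposited count table the values are the authors' whole-number reads per gene, not normalised, for 78724 genes. A table of log2 CPM for 10402 genes, deposited by the authors, entered no test. Groups follow the labels.

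edgeR 4.0.16 in R 4.3.3 fitted its quasi-likelihood model to all 18 libraries with 1 term per group, TMM factors and filterByExpr (minimum count 10), which left 15558 genes. The common biological coefficient of variation was 0.129. P-values were Benjamini-Hochberg adjusted over all tested genes, and a gene is called at an adjusted p under 0.05. The SE is the absolute log2 fold change divided by the square root of F. Gene levels and summed list levels are CPM on TMM-scaled totals, while the pseudogene level, mitochondrial share, CHST1 ratio and HLA-DMB floor use plain totals. Intervals and floors cover counting error only. The fit was checked on simulated counts.

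Genes named are the 20 called in each direction with the largest change among those whose log2 CPM averaged 1 or more and no overlap of the lines, the 10 with the largest CPM difference, PGR, and members of 35 gene lists. CHST1 and HLA-DMB were chosen after their values were seen. The members and lists were chosen with earlier results of these data known. Promoter windows are from RefSeq, GRCh38.p14; coordinates of genes are from GENCODE on GRCh38, matched for 14700 tested genes (94.5%).

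Alternatives were DESeq2 1.42.0, limma 3.58.1 voom with quality weights, other scalings and filters, a fit of the compared groups alone, the replicate number as a block, and each library left out. GC and length offsets, and leaving out pseudogenes and mitochondrial genes, were added after the data were seen.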

Additional observations from a re-analysis of the deposited data

Results flagged for a closer look

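The response to MPA (MPA minus vehicle) of promoter cells minus that of NT cells, tested as a difference of differences in edgeR, was called for 242 of the tested genes. It draws on the vehicle libraries compared above, so it is not independent of them. Among the genes named here, the response was more negative in promoter cells for PADI2 (-2.48), CDCP1 (-1.82), PIMREG (-1.54), PLAU (-1.13), KIF18B (-1.07), KIF2C (-1.04), MMP1 (-0.89), CDC6 (-0.81), E2F7 (-0.73), CDK1 (-0.72), BUB1 (-0.72), WNT2 (-0.66), LAMA4 (-0.52) and TEK (-0.43), on the log2 scale. It was more positive for MFAP5 (0.96), LAMA2 (1.08), NR2F1 (1.15), FKBP5 (1.18), SIX2 (1.67), OMD (1.69), SPRY1 (2.04) and FOXO1 (2.28). For SPRY1 the promoter minus NT difference was 0.36 in MPA and -1.69 in vehicle, and for FOXO1 it was 1.75 in MPA and -0.53 in vehicle. For PLAU it was -0.09 in MPA and 1.04 in vehicle, and for CDK1 -0.03 in MPA and 0.69 in vehicle.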

How the results depend on the processing

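PGR was called in every alternative run. Direction was checked gene by gene for PGR, the genes named by rule, the called list members and CHST1, and none of these turned. The other called genes were not checked in this way. The balance of higher and lower calls did turn: in vehicle it was 478 to 572, against 232 to 203 with the 2 groups alone, 249 to 223 without promoter replicate 1 and 874 to 572 with no filter on low counts, and for the difference of responses 125 to 117, against 298 to 460 with no filter and 1612 to 1832 with voom. For promoter against NT cells in vehicle, the 2 groups fitted alone gave 435 called genes (228 of the 478 higher and 198 of the 572 lower genes among them), voom with quality weights 5728, GC and length offsets 1701, and leaving out single libraries 472 to 1347. For promoter against U1U2 cells in vehicle, the 2 groups alone gave 11, DESeq2 265, voom 518, GC and length offsets 257, and single libraries left out 39 to 64. For promoter against NT cells in MPA, voom gave 1433, the offsets 1033 and libraries left out 390 to 490. For the difference of the lines' MPA responses, DESeq2 gave 458, no filter on low counts 758, voom 3444, the offsets 432 and libraries left out 116 to 271. For MPA in U1U2 cells, the 2 groups alone gave 1049 and voom 4159. The cause of these shifts was not tested. With the replicate block, 774 genes were called for promoter against NT cells in vehicle, 69 for promoter against U1U2 cells, 517 in MPA, 150 for the difference of responses and 1523 for MPA in U1U2 cells. Deviations of same-numbered promoter and NT vehicle libraries from their group means correlated weakly (0.20, 0.15 and -0.05). Such values cannot settle whether the numbers pair the samples, and the labels do not say. For single genes and list counts 3820 values stayed: gene calls on the same side of the threshold, or list counts within 1.5 times. Another 405 gene calls lost the threshold, and 250 list counts moved by over 1.5 times. Depth, lowest in NT replicate 1 (11932474 counts), limits the precision of genes near 1 CPM, such as OMD and PTGIS.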
